A study of Mus musculus with 16 samples.

Results

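The genes described here are 34 genes of sterol synthesis and fatty acid metabolism, measured in sorted liver cells of mice. They were chosen by name from an array that carried 28034 gene names, and all 34 were found, on 65 probes. They comprise 13 enzymes of sterol synthesis, 3 regulators of that pathway, 6 enzymes of fatty acid synthesis, 9 genes of fatty acid oxidation, and 3 genes of lipid transport or ketone metabolism. All 34 passed the filter on dim probes and are among the 23309 genes tested.

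The samples came from c129/S3 mice, and per the labels the cells were sorted by flow cytometry on the MIC1-1C3 antigen (M) and on CD133, the product of Prom1. The 4 groups were M+133+ cells after DDC (n = 4), M+133+ cells from untreated livers (n = 4), M-133- cells after DDC (n = 4) and M-133- cells from untreated livers (n = 2). DDC (3,5-diethoxycarbonyl-1,4-dihydrocollidine), a porphyrinogenic compound that induces a ductular reaction, was given at 0.1% of the diet for 2 weeks. Age and sex are not given in the sources used here, and M-133- cells are a gate of what both antibodies left unlabelled, not a purified cell type.

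Cholesterol is built from acetyl-CoA through mevalonate, isoprenoids, squalene and lanosterol, and the enzymes of this chain are known to be transcribed together by SREBP-2 when membrane sterol is low. SREBP-1 mainly drives the synthesis and desaturation of fatty acids, and INSIG proteins hold both SREBPs in the endoplasmic reticulum. Hepatocytes also burn fatty acids in mitochondria and peroxisomes, and PPARα, which fatty acids activate, induces many of those enzymes together with the fatty acid binding protein FABP1.

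Levels are log2 of the array signal with the 75th percentile of its array set to 0, so they rank samples for 1 gene and not genes against each other. Over 16 arrays that percentile lay between 603 and 2732 intensity units, with 59.7% to 77.0% of probes well above background. Bile duct markers set the sorts apart: the mean level of 7 such genes was 4.05 to 6.07 in M+133+ DDC samples and 3.86 to 4.19 in M+133+ untreated samples, against -2.30 to -0.31 in M-133- DDC samples and -4.16 to -2.79 in M-133- untreated samples. The mean of 10 hepatocyte genes ran the other way, at -4.56 to 0.72 in M+133+ DDC and -2.70 to -1.13 in M+133+ untreated samples, against 4.21 to 4.60 in M-133- DDC and 4.31 to 5.59 in M-133- untreated samples. The M+133+ DDC sample with a hepatocyte mean of 0.72 was sample 2, and the other samples of that group had -2.75 or less. Of 6 endothelial markers, M+133+ cells had 5 called lower after DDC and 6 in untreated livers, and of 6 stellate cell markers 6 and 2. In sorted bulk samples, fewer cells of a type and less RNA per cell cannot be told apart, and the part of hepatocyte, endothelial or stellate cell RNA in the differences below was not tested. Over all genes, the median log2 difference was 0.31 for M+133+ minus M-133- after DDC and -0.07 in untreated livers, and for DDC minus untreated it was 0.06 in M+133+ and -0.36 in M-133- cells. With quantile normalization these medians were -0.03, 0.02, 0.02 and 0.06.

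**Figure D1:**
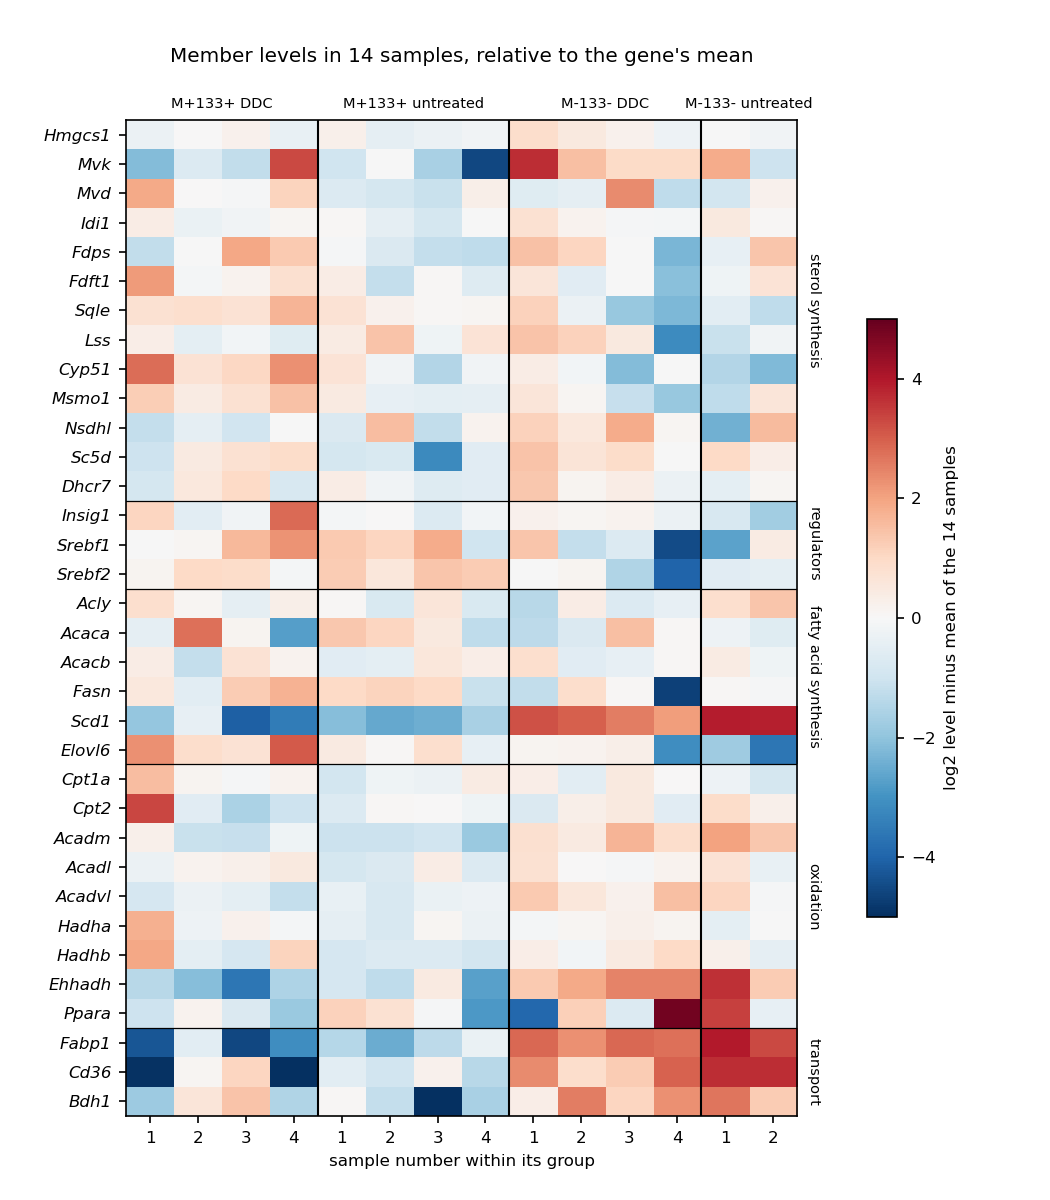
Levels of the 34 genes (rows, by role) in 14 samples (columns, by group), as log2 level minus the gene's mean over all samples, with red for higher. The rows of Scd1 and Fabp1 are blue in nearly all M+133+ samples and red in every M-133- sample, while most sterol synthesis rows show no such split.

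The first question is how M+133+ cells, a ductal population studied as candidate liver progenitors, differed from M-133- cells. After DDC, 1 member was higher and 6 were lower in M+133+ cells, where 6.44% of all genes tested were called higher and 6.48% lower. In untreated livers 0 members were higher and 4 were lower, against 3.63% and 5.16% of all genes. After DDC no slide held both sorts, so the sorts could not be compared within a slide. With slide as a fixed block, 0 members were higher and 2 lower after DDC, where 499 and 645 of the 23309 genes were called. Calls are at an adjusted p under 0.05 (limma, Benjamini-Hochberg over all 23309 genes), and 12 members after DDC and 10 in untreated livers had an unadjusted p under 0.05, or 35.3% and 29.4% of the 34, where 25.8% and 19.5% of all genes did. The lower calls lay in desaturation, oxidation and transport, and 1 of the 13 sterol enzymes was called. The members' median log2 difference was 0.02 after DDC and -0.41 in untreated livers. P-values measure the spread between these samples, which the study's design text counts as biological replicates.

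**Figure D2:**
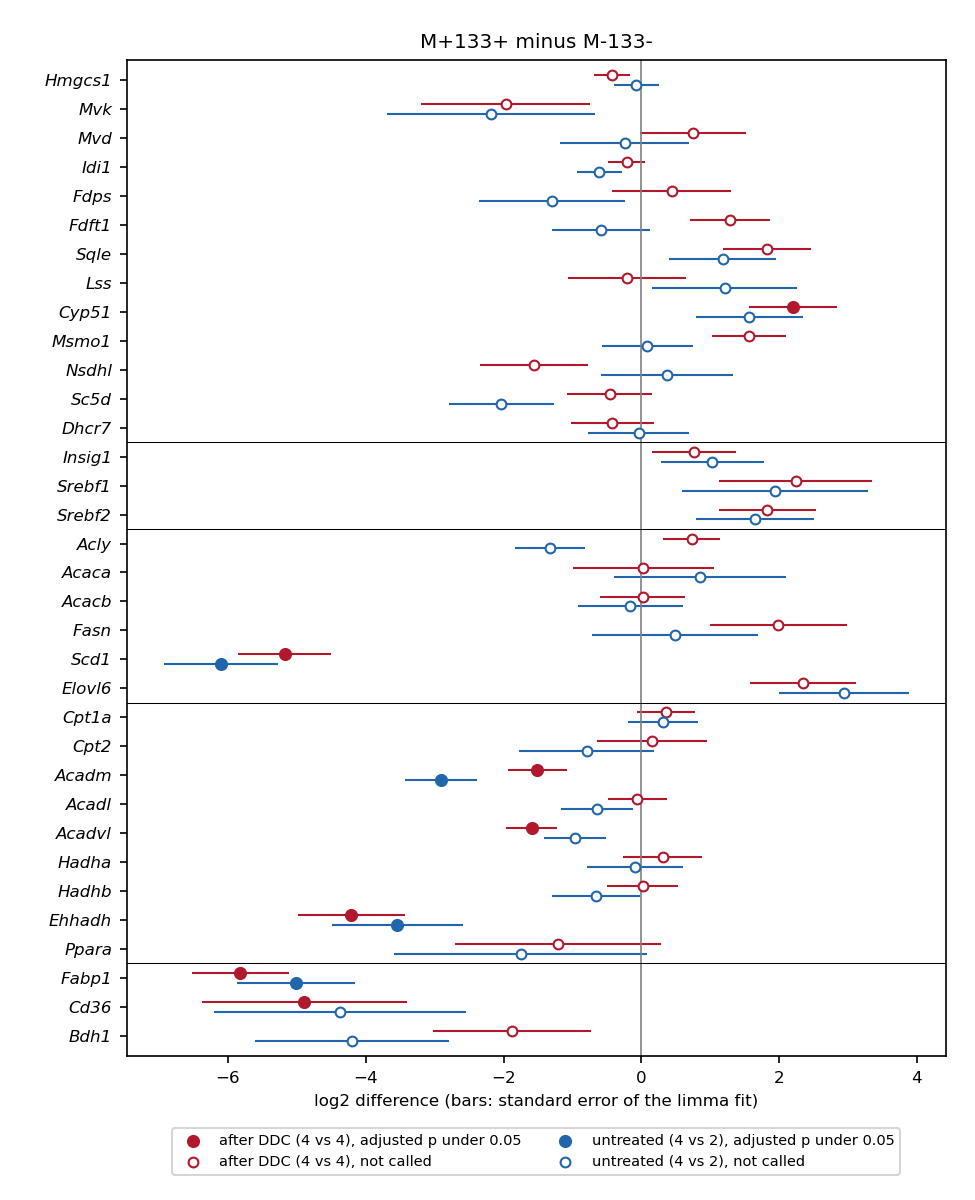
Log2 difference of M+133+ minus M-133- cells for each member, after DDC (red) and in untreated livers (blue), with bars for the standard error; filled points had an adjusted p under 0.05. Fabp1 and Scd1 stand furthest to the left in both treatments, at -5.82 and -5.18 after DDC, and Cyp51 is the filled point to the right of 0.

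Among the sterol enzymes the largest difference after DDC was that of Cyp51, the lanosterol demethylase. Its levels were 4.84, 2.75, 3.08 and 4.32 in M+133+ DDC samples, against 2.40, 1.90, -0.12 and 2.01 in M-133- DDC samples. In M+133+ untreated samples they were 2.71, 1.87, 0.59 and 1.87, against 0.57 and -0.18 in M-133- untreated samples. The groups did not overlap in either treatment. The log2 difference was 2.20 ± 0.64 (SE) after DDC, or 4.60-fold (adjusted p = 0.0338, limma), and 1.57 ± 0.78 in untreated livers (adjusted p = 0.297). The probe lies at chr5:4092033-4092439 (mm9, minus strand), and both other Cyp51 probes were also brighter in M+133+ cells after DDC, by 3.10 and 3.90. The call was lost in 7 of 28 other settings, among them the fits without M+133+ DDC sample 1 or sample 4, without M-133- DDC sample 3, and with slide as a fixed block (log2 differences over all 28 settings, 1.65 to 3.07).

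Sqle and Msmo1, which act before and after lanosterol is formed, had values in the same direction after DDC without passing the test. Sqle, squalene epoxidase, had 2.12, 2.20, 2.09 and 3.09 in M+133+ DDC samples, against 2.52, 1.09, -0.52 and -0.87 in M-133- DDC samples, so that 1 M-133- sample overlapped (1.82 ± 0.64, adjusted p = 0.0779, limma). Msmo1, a C-4 methylsterol oxidase, had 4.69, 3.87, 4.19 and 4.93 in M+133+ DDC samples, against 4.06, 3.53, 2.31 and 1.54 in M-133- DDC samples (1.56 ± 0.54, adjusted p = 0.0719), and the M-133- sample at 4.06 lay above the M+133+ sample at 3.87. Without M-133- DDC sample 1, Sqle was called (2.48, adjusted p = 0.00821, limma) and so was Msmo1 (1.96, adjusted p = 0.0279). Msmo1 also passed with quantile normalization and with the first repeat array only. Without M-133- DDC sample 4, the lowest of its group for both, Sqle differed by 1.34 (adjusted p = 0.197) and Msmo1 by 1.12 (adjusted p = 0.191). The other 10 sterol enzymes had log2 differences between -1.97 and 1.29 after DDC, and none was called. In untreated livers all 13 lay between -2.18 and 1.57, and 0 were called (1 at an unadjusted p under 0.05, namely Sc5d, the lathosterol oxidase, at -2.03).

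Hmgcs1 and Idi1 varied little between samples. Hmgcs1, the cytosolic HMG-CoA synthase, ranged from 4.29 to 4.85 in M+133+ DDC and 4.21 to 4.91 in M+133+ untreated samples, against 4.38 to 5.51 in M-133- DDC and 4.48 to 4.64 in M-133- untreated samples. Idi1, the isopentenyl isomerase, ranged from 4.52 to 5.21 and 3.97 to 4.90 in the same M+133+ groups, against 4.76 to 5.62 and 4.92 to 5.35 in the M-133- groups. Mvk, mevalonate kinase, was the most variable of the sterol enzymes in M+133+ cells, at -3.91, -2.44, -2.96 and 1.55 after DDC and -2.73, -1.75, -3.35 and -6.29 in untreated livers, against 1.93, -0.24, -0.80 and -0.79 in M-133- DDC and 0.11 and -2.80 in M-133- untreated samples. Mvd, Fdps and Fdft1, which carry mevalonate to squalene, had log2 differences of 0.75, 0.44 and 1.29 after DDC and -0.24, -1.29 and -0.58 in untreated livers. Lss, Nsdhl, Sc5d and Dhcr7, which form and finish the sterol rings, had -0.21, -1.56, -0.46 and -0.42 after DDC, and 1.21, 0.37, -2.03 and -0.04 in untreated livers.

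For several sterol genes the probes disagreed, so their values hold for 1 probe. The second Fdft1 probe was lower in M+133+ cells, at -2.45 ± 0.62 after DDC and -4.26 ± 0.76 in untreated livers (adjusted p = 0.0168 and 0.00282 in a limma fit over all 34588 kept probes). Hmgcs1, Lss and Sc5d each had a dimmer probe, placed on a cDNA clone rather than the reference transcript, that was higher in M+133+ cells after DDC, by 4.37 ± 1.21, 5.37 ± 1.57 and 3.76 ± 0.88 (adjusted p = 0.0266, 0.0358 and 0.0106). Of the 65 member probes 8 were higher and 7 lower after DDC, where 6.76% and 5.71% of all probes were called. In untreated livers 0 were higher and 6 lower, against 3.42% and 4.46% of all probes. The called probes belonged to 6 members higher and 7 lower after DDC, and to 6 lower in untreated livers.

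Promoters of the sterol enzymes are shown because this chain is the textbook case of shared promoter control. The RefSeq table (GRCm38.p6) held a promoter, from 250 bases before to 50 after a start, for 30 of the 34 members. CCAAT, the letters that NF-Y binds, occurred on either strand in all 10 sterol enzymes with an entry and all 3 regulators, against 3 of 5 fatty acid synthesis, 2 of 9 oxidation and 1 of 3 transport genes. It occurred in 37.4% of the 32851 promoters of the table, and 41.1% of its 27025 genes had it at some start. TCACNCCAC, the letters of a sterol regulatory element, occurred in 2 members, Hmgcs1 and Ehhadh (1.24% of promoters), and the E-box CACGTG in 3, namely Sc5d, Dhcr7 and Insig1 (7.15% of promoters). No match of 1 motif overlapped a match of another in the members, and a match is a run of letters, not a measured site. In the 200 bases before each start, 5′ to 3′, capitals mark CCAAT or its reverse complement in Cyp51 (chr5:4104698-4104897, minus strand), Msmo1 (chr8:64733579-64733778, minus strand) and Mvk (chr5:114444069-114444268, plus strand), and the sterol element letters in Hmgcs1 (chr13:119690151-119690350, plus strand).
Cyp51: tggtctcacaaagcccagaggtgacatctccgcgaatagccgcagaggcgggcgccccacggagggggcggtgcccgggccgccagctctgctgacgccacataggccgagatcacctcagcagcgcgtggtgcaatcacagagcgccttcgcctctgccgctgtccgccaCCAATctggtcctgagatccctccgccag
Msmo1: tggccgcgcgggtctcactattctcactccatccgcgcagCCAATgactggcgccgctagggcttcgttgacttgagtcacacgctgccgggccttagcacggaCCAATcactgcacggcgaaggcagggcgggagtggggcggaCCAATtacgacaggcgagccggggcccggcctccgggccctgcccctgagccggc
Mvk: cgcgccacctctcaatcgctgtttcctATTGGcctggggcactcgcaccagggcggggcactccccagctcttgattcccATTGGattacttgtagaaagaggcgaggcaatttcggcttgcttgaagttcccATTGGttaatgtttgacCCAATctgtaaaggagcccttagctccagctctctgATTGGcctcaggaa
Hmgcs1: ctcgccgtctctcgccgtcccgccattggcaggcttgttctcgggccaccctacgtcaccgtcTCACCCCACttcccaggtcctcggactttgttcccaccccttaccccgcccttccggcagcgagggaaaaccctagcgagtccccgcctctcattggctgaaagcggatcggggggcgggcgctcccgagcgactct
Cyp51 has 1 such match, close to the start, where Msmo1 has 3 and Mvk has 5 in these windows.

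The probes used for the 3 regulators had positive sort differences in both treatments, and none was called. Srebf2, which encodes SREBP-2, had 2.95, 3.80, 3.74 and 2.72 in M+133+ DDC samples, against 2.81, 2.94, 1.32 and -1.20 in M-133- DDC samples (1.83 ± 0.70, adjusted p = 0.105, limma). In M+133+ untreated samples it had 4.08, 3.39, 4.20 and 4.07, against 2.24 and 2.32 in M-133- untreated samples (1.65 ± 0.86, adjusted p = 0.320), and the untreated groups did not overlap. All 4 Srebf2 probes were higher in M+133+ cells after DDC, by 1.28 to 7.68, and in the fit over single probes 2 of them were called. Srebf2 was also called after DDC with the mean of its probes (3.33, adjusted p = 0.00055, limma) or without M-133- DDC sample 2 (2.32, adjusted p = 0.0425). That mean takes in the probe at 7.68, which differed by 0.06 in untreated livers. In untreated livers Srebf2 was called with only the groups compared (adjusted p = 0.011, limma). The untreated M-133- value of 2.32 was the mean of repeat arrays at 3.38 and 1.27. The array at 3.38 lay next to the lowest M+133+ untreated sample, at 3.39. Srebf1, which encodes SREBP-1, differed by 2.24 ± 1.11 after DDC and 1.94 ± 1.35 in untreated livers, and Insig1, whose product retains the SREBPs, by 0.76 ± 0.61 and 1.03 ± 0.75. Without M-133- DDC sample 4, the lowest of its group for both, Srebf2 differed by 0.94 after DDC (adjusted p = 0.21, limma) and Srebf1 by 1.16. The second Insig1 probe differed by 0.53 ± 0.67 after DDC and by -0.24 ± 0.82 in untreated livers.

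Fatty acid synthesis split between its enzymes: Scd1, the stearoyl-CoA desaturase of liver, was far lower in M+133+ cells, while Elovl6, which elongates palmitate, had higher values there. Scd1 had -1.07, 0.47, -3.21 and -2.63 in M+133+ DDC samples, against 4.05, 3.85, 3.43 and 2.96 in M-133- DDC samples. In untreated livers its levels were -1.26, -1.70, -1.57 and -0.76 in M+133+ samples, against 4.79 and 4.76 in M-133- samples. The highest M+133+ value was below the lowest M-133- value in both treatments. Scd1 was 36.4-fold lower in M+133+ cells after DDC (-5.18 ± 0.68, adjusted p = 0.000133, limma) and 68.4-fold lower in untreated livers (-6.10 ± 0.83, adjusted p = 0.000383), and both calls held in every alternative fitted. Its probe lies at chr19:44469387-44469446 (mm9, minus strand). The highest Scd1 level among M+133+ samples was in DDC sample 2, the sample with the highest hepatocyte mean.

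Elovl6 had 4.09, 2.70, 2.53 and 4.90 in M+133+ DDC samples, against 1.97, 1.99, 2.10 and -1.27 in M-133- DDC samples. Untreated livers gave 2.26, 1.90, 2.68 and 1.42 in M+133+ samples, against 0.05 and -1.80 in M-133- samples. The groups did not overlap in either treatment, but the differences of 2.35 ± 0.77 and 2.94 ± 0.94 missed the threshold (adjusted p = 0.0590 and 0.0712, limma). Other settings gave a call for Elovl6 in 4 cases after DDC and 7 in untreated livers. Without M-133- DDC sample 4, the low value of its group, the difference after DDC was 1.53 (adjusted p = 0.14). The remaining members of this group were not called in the main fit. Fasn, fatty acid synthase, differed by 1.99 ± 0.99 after DDC and 0.49 ± 1.21 in untreated livers. With M-133- DDC sample 4 left out, which was at -4.27, the Fasn difference after DDC was 0.84. Acly, which makes cytosolic acetyl-CoA from citrate, had 0.73 ± 0.42 and -1.33 ± 0.51, and Acaca and Acacb, the acetyl-CoA carboxylases, had 0.03 ± 1.02 and 0.02 ± 0.62 after DDC and 0.85 ± 1.25 and -0.16 ± 0.76 in untreated livers. A second, much dimmer Acly probe differed by 4.23 after DDC and 2.38 in untreated livers. With the mean of its probes Acly was called higher after DDC (2.48, adjusted p = 0.0369, limma). With the second repeat array only, Acly was called lower in untreated livers (-1.91, adjusted p = 0.0476, limma).

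Scd2, a second stearoyl-CoA desaturase that is no member, was called in the opposite direction to Scd1. It had 2.25, 3.33, 2.59 and 2.41 in M+133+ DDC samples, against -0.07, 0.97, 0.79 and -0.49 in M-133- DDC samples (2.34 ± 0.43, adjusted p = 0.00195, limma). The untreated values were 3.81, 3.64, 3.08 and 3.59 in M+133+ samples, against 0.46 and -0.12 in M-133- samples (3.36 ± 0.53, adjusted p = 0.00108). Scd2 was thus 5.08-fold and 10.3-fold higher in M+133+ cells, without overlap between groups. Over all genes, 6.44% were called higher and 6.48% lower after DDC, and 3.63% and 5.16% in untreated livers. Of the 12 further lipogenic genes set beside the members, 2 were higher and 1 was lower after DDC, and 1 was higher and 2 were lower in untreated livers. Besides Scd2 these were Me1, malic enzyme, which was higher after DDC (2.45 ± 0.60, adjusted p = 0.0130), Thrsp, a lipogenic protein of liver, which was lower in both (-2.46 ± 0.77 and -4.72 ± 0.94, adjusted p = 0.0479 and 0.00546), and Elovl5, an elongase of polyunsaturated fatty acids, which was lower in untreated livers (-1.56 ± 0.46, adjusted p = 0.0469).

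**Figure D3:**
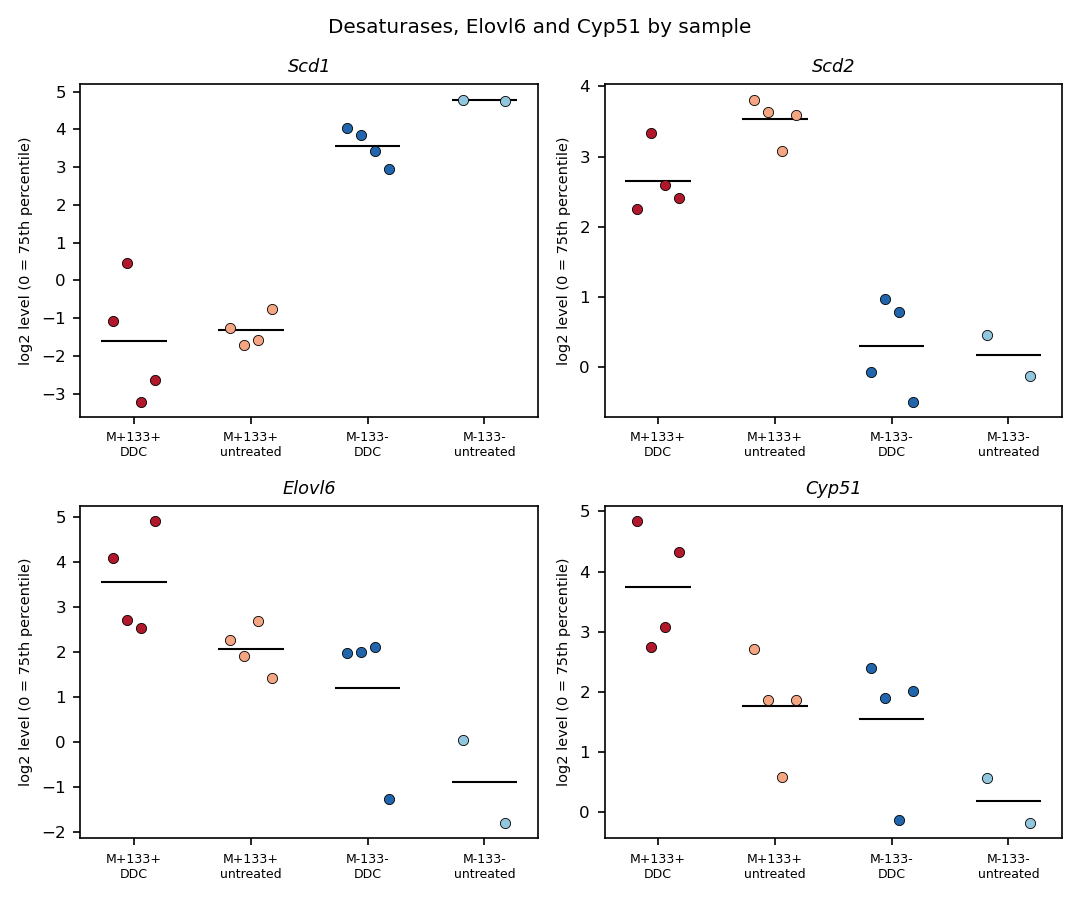
Log2 levels of Scd1, Scd2, Elovl6 and Cyp51 in each sample (points) with the group mean (line), M+133+ groups to the left. Scd1 is at 0.47 or less in all M+133+ samples and at 2.96 or more in all M-133- samples, and Scd2 is ordered the other way, at 2.25 or more in M+133+ samples and 0.97 or less in M-133- samples.

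Of the 9 oxidation members, 3 were lower in M+133+ cells after DDC and 2 in untreated livers, where 6.48% and 5.16% of all genes were called lower. Ehhadh, the bifunctional enzyme of peroxisomal oxidation, had -2.18, -2.94, -4.42 and -2.35 in M+133+ DDC samples, against 0.50, 1.09, 1.67 and 1.69 in M-133- DDC samples. In untreated livers it had -1.66, -2.07, -0.36 and -3.51 in M+133+ samples, against 2.83 and 0.45 in M-133- samples. It was 18.6-fold lower after DDC (-4.21 ± 0.78, adjusted p = 0.00200, limma) and 11.6-fold lower in untreated livers (-3.54 ± 0.95, adjusted p = 0.0312), with no overlap in either. Its probe lies at chr16:21761914-21761973 (mm9, minus strand).

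Acadm, the medium-chain acyl-CoA dehydrogenase, had 2.67, 1.30, 1.26 and 2.21 in M+133+ DDC samples, against 3.22, 2.85, 4.11 and 3.29 in M-133- DDC samples (-1.51 ± 0.43, adjusted p = 0.0294, limma). In untreated livers its levels were 1.36, 1.36, 1.44 and 0.57 in M+133+ samples, against 4.42 and 3.77 in M-133- samples (-2.91 ± 0.52, adjusted p = 0.00260). Again the groups did not overlap. Acadvl, the very long-chain dehydrogenase, had 2.61, 3.18, 2.98 and 2.27 in M+133+ DDC samples, against 4.75, 4.01, 3.67 and 4.98 in M-133- DDC samples (-1.59 ± 0.37, adjusted p = 0.00900). In untreated livers Acadvl had 3.07, 2.65, 3.13 and 3.20 in M+133+ samples, against 4.54 and 3.39 in M-133- samples, and was not called (-0.96 ± 0.45, adjusted p = 0.256). Of 28 other settings, 26 kept the Acadvl call after DDC, and the fits on quantile-normalized values and with the slide as a fixed term did not. The probes lie at chr3:153585670-153585729 for Acadm and chr11:69823750-69823809 for Acadvl (mm9, both minus strand).

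The Acadm call after DDC was lost in 11 of 28 other settings, among them those without M+133+ DDC sample 2 (adjusted p = 0.0768) or 3, or without M-133- DDC sample 1, 3 or 4. In untreated livers it was lost without M-133- untreated sample 1, as was the Ehhadh call, which was also lost without M+133+ untreated sample 1, 2 or 4. Within the only slides that held both sorts of untreated cells, with 1 array of each, Acadm differed by -0.77 and -4.89 and Ehhadh by -0.77 and -3.95. Both M-133- arrays there are repeats of 1 sample, M-133- untreated sample 2, and they gave 2.06 and 5.47 for Acadm and 0.46 and 0.45 for Ehhadh. No slide held both sorts after DDC.

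The other oxidation members did not pass the test in either treatment. Cpt1a and Cpt2, the carnitine palmitoyltransferases that carry fatty acids into mitochondria, differed by 0.36 ± 0.42 and 0.16 ± 0.80 after DDC and by 0.31 ± 0.51 and -0.79 ± 0.98 in untreated livers. Acadl, the long-chain dehydrogenase, differed by -0.06 ± 0.43 and -0.64 ± 0.52. Hadha and Hadhb, the subunits of the mitochondrial trifunctional protein, differed by 0.31 ± 0.57 and 0.02 ± 0.52 after DDC and by -0.09 ± 0.70 and -0.66 ± 0.64 in untreated livers. Ppara, which encodes PPARα, was spread widely, at -4.72, -3.52, -4.41 and -5.55 in M+133+ DDC samples, against -7.62, -2.52, -4.37 and 1.14 in M-133- DDC samples, of which 3 of 4 were well above background, and no difference could be resolved (-1.21 ± 1.50 after DDC, -1.75 ± 1.84 in untreated livers).

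Fabp1, the liver fatty acid binding protein, had the largest difference of all members after DDC. It had -1.31, 2.44, -1.57 and -0.14 in M+133+ DDC samples, against 5.86, 5.25, 5.83 and 5.74 in M-133- DDC samples. Untreated livers gave 1.55, 0.51, 1.66 and 2.65 in M+133+ samples, against 6.94 and 6.26 in M-133- samples. It was 56.4-fold lower in M+133+ cells after DDC (-5.82 ± 0.71, adjusted p = 7.23e-05, limma) and 32.2-fold lower in untreated livers (-5.01 ± 0.86, adjusted p = 0.00205), with no overlap. The probe, at chr6:71154906-71154965 (mm9, plus strand), was well above background in all 14 samples. Sample 2 was again the highest of the M+133+ DDC group, and without it the difference after DDC was -6.68 ± 0.49.

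Cd36, a fatty acid translocase that endothelium and macrophages also carry, had -2.99, 2.04, 2.99 and -6.46 in M+133+ DDC samples, against 4.28, 2.81, 3.19 and 4.87 in M-133- DDC samples. The groups overlapped, since M+133+ sample 3 exceeded M-133- sample 2, and the call (-4.89 ± 1.49, adjusted p = 0.0430, limma) held in 9 of 28 other settings. Of the fits that leave out 1 sample, it held in those without M+133+ DDC sample 2 or 3 and was lost in the other 12. In untreated livers Cd36 had 1.39, 0.98, 2.16 and 0.53 in M+133+ samples, against 5.63 and 5.64 in M-133- samples (-4.37 ± 1.83, adjusted p = 0.190), which passed with only the groups compared (adjusted p = 0.00135) and without M+133+ DDC sample 4 (adjusted p = 0.0388). The untreated M-133- value of 5.64 was the mean of repeat arrays at 4.94 and 6.33. Beside the Cd36 values, the mean of the 6 endothelial markers was -3.73 to -2.11 in M+133+ DDC samples, against 0.59 to 3.52 in M-133- DDC samples. The mean of 6 macrophage markers overlapped, at -5.32 to -1.24 against -4.25 to -0.82 in the same groups, and 0 of them were called. In untreated livers 1 macrophage marker was called higher and 1 lower in M+133+ cells. The part of either marker list in the Cd36 difference was not tested. The probe used spans chr5:17289110-17291542 (mm9, minus strand). A second, dimmer Cd36 probe differed by -2.17 after DDC and by -5.10 in untreated livers. For DDC minus untreated in M+133+ cells it gave 0.35, where the probe used gave -2.37.

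Bdh1, the mitochondrial enzyme that interconverts the ketone bodies, had -2.14, 0.29, 1.12 and -1.81 in M+133+ DDC samples, against 0.03, 2.24, 0.76 and 1.96 in M-133- DDC samples (-1.88 ± 1.15, adjusted p = 0.334, limma). The untreated values were -0.26, -1.49, -6.44 and -1.93 in M+133+ samples, against 2.35 and 0.97 in M-133- samples (-4.20 ± 1.41, adjusted p = 0.0862). The untreated groups did not overlap, and M+133+ untreated sample 3 lay far below the others. Its second probe was called in untreated livers in the fit over single probes (-5.13 ± 1.16, adjusted p = 0.0123).

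**Figure D4:**
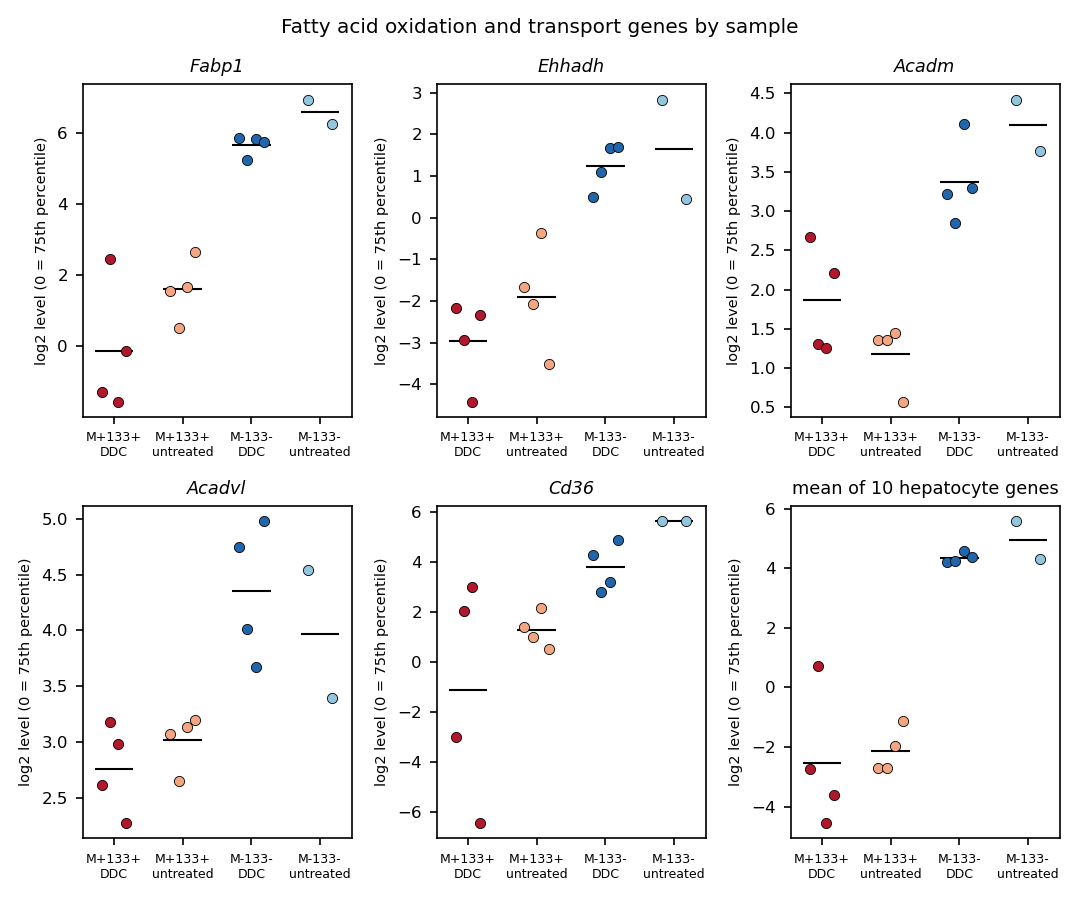
Log2 levels of 5 members called lower in M+133+ cells and the mean level of 10 hepatocyte genes, in each sample (points) with the group mean (line), M+133+ groups to the left. M+133+ DDC sample 2 is the highest of its group for Fabp1 (2.44), Acadvl (3.18) and the hepatocyte mean (0.72), while sample 1 is the highest for Acadm (2.67) and Ehhadh (-2.18) and sample 3 for Cd36 (2.99).

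The promoters of Fabp1 and Ehhadh are shown because both genes are textbook targets of PPARα in liver and were lower in both treatments. The direct repeat that PPARα binds with RXR was searched on both strands and occurred in 1 member, Fabp1 (0.381% of promoters). Capitals mark that match, on the minus strand, in Fabp1 (GRCm38.p6, chr6:71199679-71199878, plus strand) and the sterol element letters in Ehhadh (chr16:21787835-21788034, minus strand), in the 200 bases before each start.
Fabp1: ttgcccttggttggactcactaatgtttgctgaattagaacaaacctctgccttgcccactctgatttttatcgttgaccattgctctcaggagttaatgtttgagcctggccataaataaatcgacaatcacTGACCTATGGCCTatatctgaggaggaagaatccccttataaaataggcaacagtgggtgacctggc
Ehhadh: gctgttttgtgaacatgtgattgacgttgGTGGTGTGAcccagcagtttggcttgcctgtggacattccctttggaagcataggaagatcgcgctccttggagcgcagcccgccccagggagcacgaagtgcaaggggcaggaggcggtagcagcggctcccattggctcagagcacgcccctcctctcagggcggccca
In these windows Fabp1 and Ehhadh share neither motif. The search covered only 250 bases before to 50 after each start, so it says nothing of sites elsewhere.

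Further genes of the same pathways, set beside the members, gave the following. Over all genes, 6.44% were called higher and 6.48% lower after DDC, and 3.63% and 5.16% in untreated livers. Of 12 other sterol genes, 0 were higher and 3 were lower in each treatment. Among these were Ebp, an isomerase of the late pathway, in both (-1.14 ± 0.29 after DDC and -1.50 ± 0.36 in untreated livers), Insig2 after DDC (-2.98 ± 0.52) and Acat2, the cytosolic thiolase, in untreated livers (-1.48 ± 0.41), with adjusted p from 0.00124 to 0.0346 (limma). Of 15 other oxidation genes, 0 were higher and 5 were lower in each treatment, with Eci1 lowest after DDC (-1.93 ± 0.48) and Acat1 lowest in untreated livers (-2.88 ± 0.85). Their adjusted p ran from 0.00218 to 0.0477 (limma). The median difference of the 15 was -1.22 after DDC and -1.75 in untreated livers, against 0.31 and -0.07 over all genes.

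Of 12 other genes of fatty acid uptake and activation, 2 were higher and 5 lower after DDC, and 1 was higher and 4 lower in untreated livers. The shares over all genes are those given above. Slc27a1, a fatty acid transport protein best known from muscle and fat, was higher in M+133+ cells, at -0.94, 0.73, 0.92 and 0.13 in M+133+ DDC samples, against -3.08, -4.03, -4.32 and -3.00 in M-133- DDC samples (3.82 ± 0.67, adjusted p = 0.00139, limma). In untreated livers it had 2.26, 1.30, 2.65 and 1.06 in M+133+ samples, against -5.79 and -3.88 in M-133- samples (6.66 ± 0.82, adjusted p = 0.000182). The M-133- value of -5.79 was not well above background, so the size of the untreated difference rests on a signal measured in 1 of 2 samples of that group. Its relatives of hepatocytes were lower: Slc27a2 differed by -6.82 ± 1.10 and -7.78 ± 1.35, and Slc27a5 by -3.92 ± 0.81 and -5.66 ± 1.00, after DDC and in untreated livers. Slc27a2 was well above background in 3 of 4 M+133+ samples of each treatment. Acsl3, an acyl-CoA synthetase, was higher after DDC (2.63 ± 0.74, adjusted p = 0.0278). Fabp4, a binding protein of fat and capillary endothelium, was lower after DDC (-5.59 ± 1.45, with 3 of 4 M+133+ DDC samples well above background), as was Lpl, lipoprotein lipase (-2.84 ± 0.76), and Plin2, a lipid droplet protein, was lower in both treatments (-2.37 ± 0.41 and -2.38 ± 0.51). These lower calls had an adjusted p between 0.000771 and 0.0217, and Acsl1 was the other lower call in untreated livers (-4.02 ± 0.57, adjusted p = 0.000514).

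The second question is how DDC feeding changed each population. No member was called in either sort (limma, adjusted p under 0.05 over all genes), with 5 members at an unadjusted p under 0.05 in M+133+ and 2 in M-133- cells. These are 14.7% and 5.88% of the 34, where 12.5% and 12.8% of all genes had such a p. Few genes were called at all: 0.240% of all genes in M+133+ and 1.02% in M-133- cells. Both DDC comparisons share samples with the sort comparisons above.

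In M+133+ cells the sterol enzymes had mostly positive values, without a call. Of 13, 11 had a positive difference (84.6%, against 52.5% of all genes), with a median of 1.12 against 0.06 over all genes, and 3 had an unadjusted p under 0.05 (23.1%, against 12.5%). Cyp51 had 4.84, 2.75, 3.08 and 4.32 after DDC, against 2.71, 1.87, 0.59 and 1.87 in untreated M+133+ samples, without overlap (1.99 ± 0.64, adjusted p = 0.219, limma). Sc5d had 0.56, 2.01, 2.35 and 2.51 after DDC, against 0.68, 0.80, -1.61 and 1.01 (1.64 ± 0.62, adjusted p = 0.284). Msmo1 had 4.69, 3.87, 4.19 and 4.93 after DDC, against 3.89, 3.02, 2.96 and 3.00 (1.20 ± 0.54, adjusted p = 0.374), so that only the untreated sample at 3.89 reached into the DDC range. In M-133- cells 9 of the 13 had a positive difference (69.2%, against 37.5% of all genes), with a median of 0.36 against -0.36 over all genes, and 0 had an unadjusted p under 0.05. With quantile normalization the median over all genes in M-133- cells was 0.06, so the share of 37.5% depends on the scaling. The share of the sterol enzymes under that scaling is not given here. Of the 12 other sterol genes, 8 had a positive DDC difference in M+133+ cells (median 0.29) and 5 in M-133- cells (median -0.1), with 0 called. Beside these values, 5 of 5 cell division markers had positive DDC differences in each sort (median 2.13 in M+133+ and 4.03 in M-133- cells, with 2 and 1 called), and their part was not tested.

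Among the fatty acid genes, Fabp1 differed by -1.74 ± 0.71 in M+133+ cells (adjusted p = 0.322, limma) and -0.93 ± 0.86 in M-133- cells. Without M+133+ DDC sample 2 the M+133+ difference was -2.60 ± 0.49 and passed the test (adjusted p = 0.0425). Hadhb was the other member at an unadjusted p under 0.05 in M+133+ cells (1.19 ± 0.52, adjusted p = 0.367). In M-133- cells Acly had 2.40, 4.14, 3.09 and 3.36 after DDC, against 4.62 and 5.19 in untreated samples, without overlap of sample values (-1.66 ± 0.51, adjusted p = 0.164, limma). The untreated Acly value of 5.19 is the mean of repeat arrays at 4.09 and 6.29, and the array at 4.09 lay below the DDC sample at 4.14. Elovl6 had 1.97, 1.99, 2.10 and -1.27 after DDC in M-133- cells, against 0.05 and -1.80 (2.07 ± 0.94, adjusted p = 0.371). Scd1 differed by -0.29 ± 0.68 in M+133+ and -1.20 ± 0.83 in M-133- cells. Of the further pathway genes 1 was called: Acsl1, the main long-chain acyl-CoA synthetase of liver, had 3.08, 2.08, 2.03 and 1.73 in M-133- DDC samples, against 5.33 and 4.72 in M-133- untreated samples (-2.79 ± 0.57, adjusted p = 0.0305). Beside the M-133- values, all 6 stellate cell markers had positive DDC differences (median 3.64, 1 called), all 6 endothelial markers had negative ones (median -3.04, 0 called) and 2 of 7 bile duct markers were called higher. Their part in the M-133- differences was not tested.

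**Figure D5:**
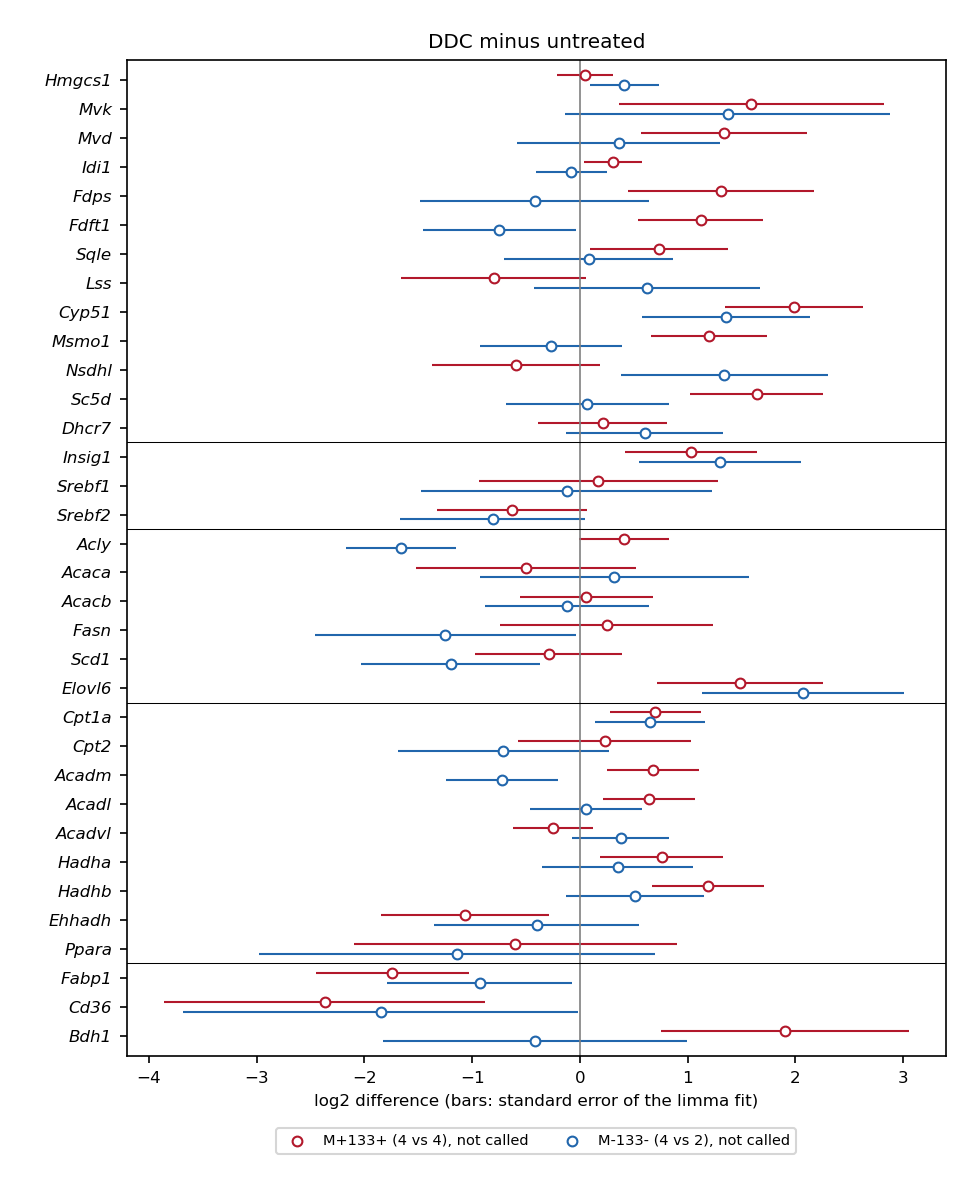
Log2 difference of DDC minus untreated for each member in M+133+ (red) and M-133- cells (blue), with bars for the standard error. All points are open because none had an adjusted p under 0.05, and among the sterol enzymes Cyp51 (1.99) and Sc5d (1.64) stand furthest to the right in M+133+ cells.

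Whether the sort difference changed with DDC was tested as an interaction. No member was called (limma, 1 at an unadjusted p under 0.05), where 0.257% of all genes were called and 9.99% had an unadjusted p under 0.05. The member with the smallest p was Acly, whose sort difference was 0.73 after DDC and -1.33 in untreated livers (interaction 2.07 ± 0.66, adjusted p = 0.293). These Acly values hold for 1 probe, and the dimmer second probe had 4.23 after DDC and 2.38 in untreated livers. For Scd1 the interaction was 0.91 ± 1.07, for Fabp1 -0.81 ± 1.12, for Cyp51 0.64 ± 1.01 and for Acadm 1.40 ± 0.67.

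The authors' deposited table lists all 34 probes used here, with fold changes whose sign turns on M-133- over M+133+ in the sort comparisons. Of the 34 members, 9 in the authors' deposited table had a false discovery rate under 5% for the sort in untreated livers, where 15.6% of all listed rows did, and 3 after DDC, where 7.93% of rows did. By the authors' deposited table, 4 of the 9 were higher in M+133+ cells, namely Sqle (2.58%), Cyp51 (3.23%), Srebf2 (2.58%) and Elovl6, and 5 were lower, while all 3 after DDC were lower. For Scd1 the authors' deposited table gives a 53.8-fold lower level in M+133+ cells in untreated livers and a 31.0-fold lower level after DDC. For Elovl6 the authors' deposited table gives a 12.3-fold higher level in M+133+ cells in untreated livers at a false discovery rate of 1.25%. Of the members called here after DDC, Cyp51 and Acadm had 6.56% in the authors' deposited table, Cd36 had 16.63% and Acadvl had 20.13%. For DDC against untreated, 0 members were under 5% in the authors' deposited table in either sort.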

How the data were processed

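Per the labels' protocols, cells were sorted into Trizol LS and their RNA was carried through NuGEN WT-Ovation Pico amplification and Cy3 labelling, on 16 Agilent arrays of 1 colour for 14 samples. Spot brightness was taken from the deposited scanner files as an intensity, namely the processed signal of Agilent Feature Extraction 10.5.1.1 per the file headers, which is not scaled between arrays. The authors' deposited table holds a fold change and a false discovery rate per probe, both treated here as a score. Its normalization and test settings are not given in the sources used here, although the submitters' processing notes name limma.

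Each array's 75th percentile was subtracted from its log2 processed signal. Outlier-flagged spots were left out, spots of a probe averaged, then the repeat arrays of the 2 samples that had them (r = 0.907 and 0.833 across genes). The filter on dim probes asked for a well-above-background call in a 0.5 share of 1 group's samples or more, and the brightest probe left stood for its gene. Probe coordinates are on mm9, and of 41174 probes 32831 took a current name from RefSeq (GRCm38.p6), used for names and promoters only. All 14 samples entered 1 linear model per gene (limma 3.58.1, R 4.3.3) with an intensity trend, two-sided tests, Benjamini-Hochberg adjustment over 23309 genes and a threshold of 0.05. Precision is set by how few arrays there are, with 2 samples in the smallest group.

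The members and the lists beside them were chosen with earlier results of these data known. The naming rule took every member by role, with all sample values for members called in any comparison, and up to 3 called genes per further list, comparison and direction; sample values of other members, and Lpl and Plin2, were added after their values were seen. Alternatives were quantile normalization, normexp background correction (offset 50), probe filters, the mean of a gene's probes, no intensity trend, 1 repeat array, only the groups compared, blocks by replicate number, title prefix and slide, and leaving out each sample. One further sterol gene is counted in its list and not reported here by name.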

Additional observations from a re-analysis of the deposited data

Results flagged for a closer look

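A sample stood apart from the other 3 of its group in 9 of the 102 sets of 4 values examined, by a gap of more than 0.829 of the group's range, and chance flags about 1 in 20 such sets. Among the sterol enzymes, Sqle was 3.09 in M+133+ DDC sample 4, where the others had 2.09 to 2.20. Msmo1 was 3.89 in M+133+ untreated sample 1, where the others had 2.96 to 3.02. Sc5d was -1.61 in M+133+ untreated sample 3, where the others had 0.68 to 1.01. Srebf2 was 3.39 in M+133+ untreated sample 2, where the others had 4.07 to 4.20.

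Among the fatty acid genes, Fasn was -0.69 in M+133+ untreated sample 4, where the others had 1.39 to 1.51, and Acadm was 0.57 in the same sample, where the others had 1.36 to 1.44. Elovl6 was -1.27 in M-133- DDC sample 4, where the others had 1.97 to 2.10. Without that sample the Elovl6 sort difference after DDC was 1.53 (adjusted p = 0.14, limma), against 2.35 with it, its DDC difference in M-133- cells was 2.90 (adjusted p = 0.0847), and the untreated sort difference of 2.94 was called (adjusted p = 0.0173). Cpt1a was 4.51 in M+133+ DDC sample 1, where the others had 2.93 to 3.17. Acadl was 2.12 in M+133+ untreated sample 3, where the others had 0.88 to 1.06.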

How the results depend on the processing

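The calls of Scd1 and Fabp1 in both sort comparisons held in every alternative fitted, with log2 differences of -6.23 to -4.65 and -6.68 to -5.34 after DDC and -6.61 to -5.58 and -5.36 to -3.97 in untreated livers. The number of members called lower after DDC was 6, and 2 with slide as a fixed block. It was 4 with quantile normalization, without an intensity trend, with only the groups compared and with title prefix as a fixed replicate block. Leaving out 1 sample in turn gave 4 to 5. In untreated livers it was 4, and 2 with the first repeat array only or slide as a fixed block, with 2 to 5 on leaving out 1 sample; the 2 came without M-133- untreated sample 1. The number called higher after DDC was 1. It was 0 without an intensity trend, with only the groups compared, with slide as a fixed block and with title prefix as a fixed replicate block. It was 2 with normexp correction or title prefix as a random block, 3 with the first repeat array only, 4 with quantile normalization or the mean of a gene's probes, and 6 with each probe tested on its own. Leaving out 1 sample gave 0 to 3. The number called higher in untreated livers was 0. It was 1 with quantile normalization, title prefix as a random block, the second repeat array only, or slide as a fixed or random block, and 2 with only the groups compared, and leaving out 1 sample gave 0 to 1. For DDC in M+133+ cells, 0 to 1 members were called lower on leaving out 1 sample. For DDC in M-133- cells 1 member was called lower with each probe tested on its own, through a Srebf2 probe (-6.70, adjusted p = 0.0302). Testing each probe was chosen after seeing the data. Hmgcs1 after DDC turned from -0.43 to 1.62 (adjusted p = 0.0340) with the mean of its probes, 1 of which was at 4.37. The cause of the other changes was not tested.

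Title prefixes 5, 6, 7 and 8 occurred in both DDC sorts, and 1 and 1B in both untreated sorts. What a prefix stands for is not given in the sources used here, and the main fit used no pairing. Deviations of same-numbered samples correlated at -0.153 to 0.0759, and those sharing a title prefix at -0.0128 to 0.113. With groups of 4 and 2 samples these values cannot settle whether samples were paired. With title prefix as a fixed block in the DDC samples, Cyp51, Acadm and Cd36 lost their calls. With the label number as a replicate block, 6 members were lower and 1 higher after DDC, and 3 lower and 0 higher in untreated livers. The consensus correlation was 0.0986 within title prefixes and 0.0303 within slides.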
